A study of Mus musculus with 48 samples.

Results

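The comparison described here is that of Tcons from mice given H16R with Tcons from mice given PBS. Its members were chosen by the sample labels alone, as the CD25- libraries treated with IL2 (H16R) or PBS, and they are 8 of the 48 libraries of the series. The study asked how IL-2 molecules of different strength act on regulatory T cells (Tregs), and how T cell receptor signals from MHC class II contribute. Tcon libraries served as a comparison there and were not analysed in depth. All mice were female C57BL/6 mice, 8 to 12 weeks old, and every one, PBS mice included, received 500 µg of an antibody on day -1 and again on day 0 by intraperitoneal injection. In 2 PBS mice and 2 H16R mice this antibody was an isotype control (the isotype arm), and in 2 PBS and 2 H16R mice it blocked MHC class II (the MHC II block arm). H16R mice then received 25 µg of H16R subcutaneously on day 0, and spleens were taken on day 4. H16R is a human IL-2 with 1 amino acid exchanged, which weakens its activity, fused to an antibody Fc part that prolongs its stay in the blood.

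Tcons, the conventional CD4 T cells, were the cells that passed through the column when CD25+ cells were bound and kept as Tregs. A cell that shows much CD25 at its surface is therefore removed from this fraction, and the level of Il2ra, the gene for CD25, is measured in what was left. Each library came from 1 mouse, and the Treg library of the same mouse is also in the series. In a bulk library, fewer cells of a type and less RNA per cell cannot be told apart.

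IL-2 binds a receptor of an alpha chain (CD25), a beta chain (Il2rb) and the common gamma chain (Il2rg), and the last pair carries the signal into the cell. The signal runs through the kinases JAK1 and JAK3 to the transcription factor STAT5, which enters the nucleus and binds DNA at the pattern TTCNNNGAA. Well known STAT5 targets are Il2ra itself, the feedback inhibitors Cish and Socs2, and, as a gene that is shut down, Bcl6, the factor that directs CD4 T cells to become T follicular helper (Tfh) cells. Resting conventional CD4 T cells carry little CD25, and cells with little CD25 can respond through the beta and gamma chains.

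The 8 libraries held 34.1 to 51.95 M expected counts (M, 1000000 counts, median 38.24 M), of which 93.17% to 94.5% fell on protein-coding genes. Values below are counts per 1000000 (CPM) after scaling of the libraries, and library values are always listed for replicates 1 and 2 of the isotype PBS, isotype H16R, MHC II block PBS and MHC II block H16R groups, in that order. Replicates of a group were not copies of one another: the chi-square of their counts was 4.29 to 19 per gene, where sampling noise alone gives about 1. The first principal component, with 45.9% of the variance, placed all 4 H16R libraries on one side (12.1 to 18.7) and all 4 PBS libraries on the other (-22.4 to -7.42). The second, with 31.5%, set the 2 MHC II block PBS libraries (-20.7 and -20.4) apart from the other 6 (-4.84 to 14.5). All 16 T cell identity genes passed the filter, with a summed level of 5773 to 7293 CPM. Genes of other cells were present too, and their level differed between the groups: the summed level of 16 B cell markers was 2072 and 1872 CPM in the isotype PBS libraries and 551 to 767 CPM in the other 6. The 15 MHC class II and dendritic cell genes summed to 4225 and 3393 CPM in the isotype PBS libraries, 891 and 1128 CPM in isotype H16R, 708 and 701 CPM in MHC II block PBS, and 1998 and 2262 CPM in MHC II block H16R. Because the isotype PBS libraries stand apart in these markers, counts for most gene groups are also given below for each arm alone, and the MHC II block arm does not contain these libraries.

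H16R changed a large share of the transcriptome of the Tcon fraction at day 4. Of 12257 protein-coding genes tested, 5090 (41.5%) passed an adjusted p of 0.1 in edgeR's quasi-likelihood test with the antibody as covariate. Of these, 2695 (22%) were higher and 2395 (19.5%) lower with H16R. Most changes were small. The median size of a called change was 0.285 on the log2 scale, on which 1 is a 2-fold change, and 237 genes rose and 141 fell by at least 1. The median over all tested genes was 0.00873, which is the value against which the gene groups below are read. With another scaling, by total counts alone, 3024 genes were higher and 2168 lower. The 4 H16R and 4 PBS libraries did not overlap for 2025 higher genes (16.5%) and 1825 lower genes (14.9%).

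Within the isotype arm 4775 genes (39%) passed, with 19% higher and 19.9% lower, and within the MHC II block arm 4886 (39.9%), with 22.1% higher and 17.7% lower. In both arms and in the same direction 1308 genes rose and 1109 fell, while 499 genes passed in opposite directions. In the plot of single genes by arm, mitotic genes lie along the diagonal, most Tfh genes lie below it, and B cell and myeloid markers lie to the left of it.

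**Figure D1:**
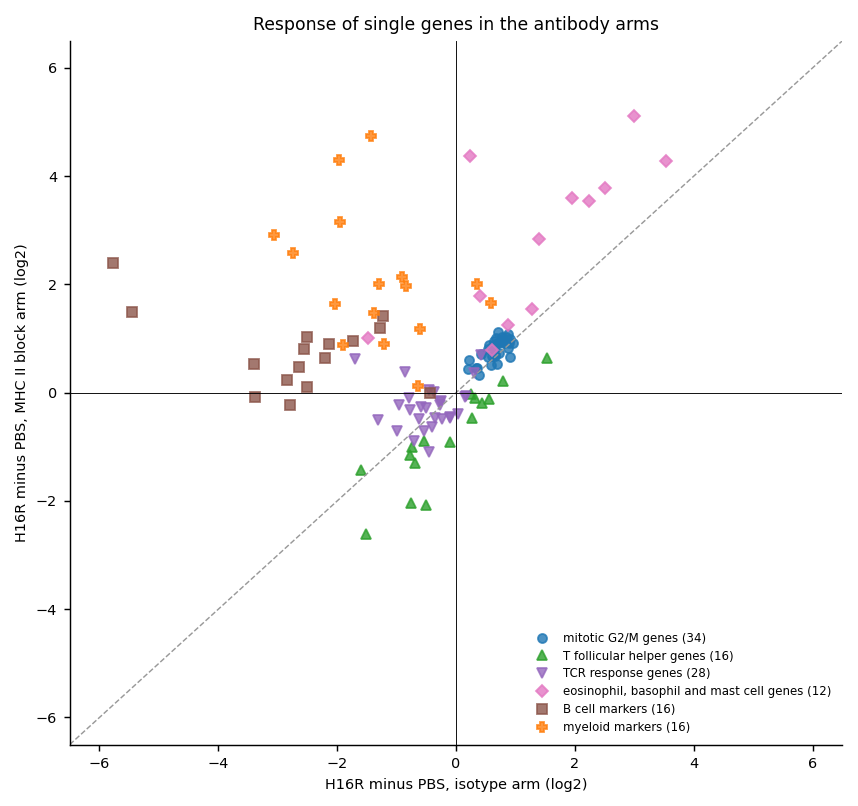
Each point is 1 tested gene of 6 gene lists, with its log2 difference of H16R minus PBS in Tcons in the isotype arm on the horizontal axis and in the MHC II block arm on the vertical axis, and the dashed line marks equal differences. The 34 mitotic genes lie close to the line on the side of higher levels (medians 0.664 and 0.856), whereas the B cell marker Fcer2a lies at -5.77 and 2.40, far from it.

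The alpha chain of the IL-2 receptor rose most among the receptor genes. Il2ra (chr2:11642807-11693193) had 19.8, 19.2, 65.0, 75.0, 19.3, 18.3, 54.0 and 52.04 CPM. All H16R libraries were above all PBS libraries, and the PBS values lay close together, with a mean of 19.2 ± 0.627 CPM against 61.5 ± 10.6 CPM with H16R (SD, n = 4 each). The difference was 1.67 on the log2 scale (SE 0.08, adjusted p = 0.00010 in edgeR's quasi-likelihood test). Il2ra is a Treg marker too, and the Treg genes Foxp3 and Lrrc32 rose with it, by 0.77 and 1.66, as described below. The part of Tregs in its rise was not tested. The level is what remained after CD25+ cells had been removed: the Tcon level was 4.8% to 5.57% of that of the Treg library of the same mouse with PBS, and 10.7% to 14.3% with H16R. Il2rb, the signalling beta chain, had 440 and 441 CPM in isotype PBS, 577 and 562 in isotype H16R, 420 and 423 in MHC II block PBS, and 610 and 480 in MHC II block H16R. It rose by 0.37 (SE 0.07, adjusted p = 0.0061). Il2rg, the common gamma chain, differed by 0.09 (SE 0.05, adjusted p = 0.18), with overlapping groups. Of the 14 genes of this family and its signalling proteins, 2 rose (Il2ra and Il2rb) and 2 fell, against 22% and 19.5% of all genes. Those that fell were Il9r, the IL-9 receptor, by 0.47 and Stat6, the factor downstream of IL-4, by 0.11. Over the alternatives tried, 2 to 4 rose and 1 to 3 fell, with 4 rising without MHC II block H16R replicate 2. The call of Stat6 was lost without any of 4 of the libraries (adjusted p = 0.10 to 0.16 in edgeR's quasi-likelihood test). The 14 had a median of -0.038, and neither Jak1, Jak3, Stat5a nor Stat5b passed.

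Among STAT5 target and feedback genes, Socs2, Cish and Prdm1 rose and Bcl6 fell. Socs2, an inhibitor induced by STAT5, had 9.45, 9.46, 28.0, 27.4, 8.84, 7.57, 25.4 and 21.5 CPM. Every H16R library stood clear of every PBS library, and the rise was 1.53 (SE 0.07, adjusted p = 0.00010 in edgeR's quasi-likelihood test). Cish, which blocks STAT5 at the receptor, had 33.3, 34.6, 54.1, 53.0, 29.9, 30.2, 54.9 and 40.5 CPM. Its groups did not overlap either, and it rose by 0.66 (SE 0.09, adjusted p = 0.0019). Prdm1, the gene for Blimp-1, a repressor found in effector T cells and plasma cells, had 22.2, 19.4, 31.7, 34.5, 19.7, 19.8, 33.4 and 34.5 CPM and rose by 0.73 (SE 0.06, adjusted p = 0.00041). Among the 30 genes of the list, 11 rose and 6 fell, against 22% and 19.5% of all genes, with a median of 0.015. The 6 that fell were Bcl6, Lta, a TNF family cytokine, Cd69, an early activation marker, Socs1 and Socs3, further feedback inhibitors, and Spred2, an inhibitor of the MAP kinase path. Pim1, Myc and Bcl2 did not pass. By arm, 9 rose and 8 fell in the isotype arm and 12 rose and 5 fell in the MHC II block arm.

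The sequences around 2 of these start sites are shown because Cish rose and Bcl6 fell, and both hold the STAT5 pattern TTCNNNGAA more than once. They are RefSeq sequences on GRCm38.p6, read in the direction of the gene, with each match in capitals. The pattern reads the same on both strands. The Cish stretch lies on the plus strand of chr9:107296655-107296682, across the annotated start of transcription and in the first, untranslated part of exon sequence. The gene Gm17040 overlaps it. The Bcl6 stretch lies on the minus strand of chr16:23981357-23981457, inside the Bcl6 gene and outside its exons in the GRCm38 annotation used for gene types. Its first base lies 174 bases before an alternative start, and it is 101 bases long.
Cish: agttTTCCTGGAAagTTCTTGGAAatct
Bcl6: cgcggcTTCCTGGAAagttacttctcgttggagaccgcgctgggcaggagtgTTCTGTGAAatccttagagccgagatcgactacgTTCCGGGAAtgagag
Of the 30 list genes, 22 had a promoter window in the table, running from 250 bases before to 50 after a start, and 7 of the 22 held the pattern at least once: Bcl6, Cish, Gzmb, Lta, Ltb, Socs3 and Tnfrsf18. By window this was 8 of 27 (29.6%), against 8.3% of all 32851 windows. The letters describe the window and not binding of a factor, and Socs2 is named without sequence.

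**Figure D2:**
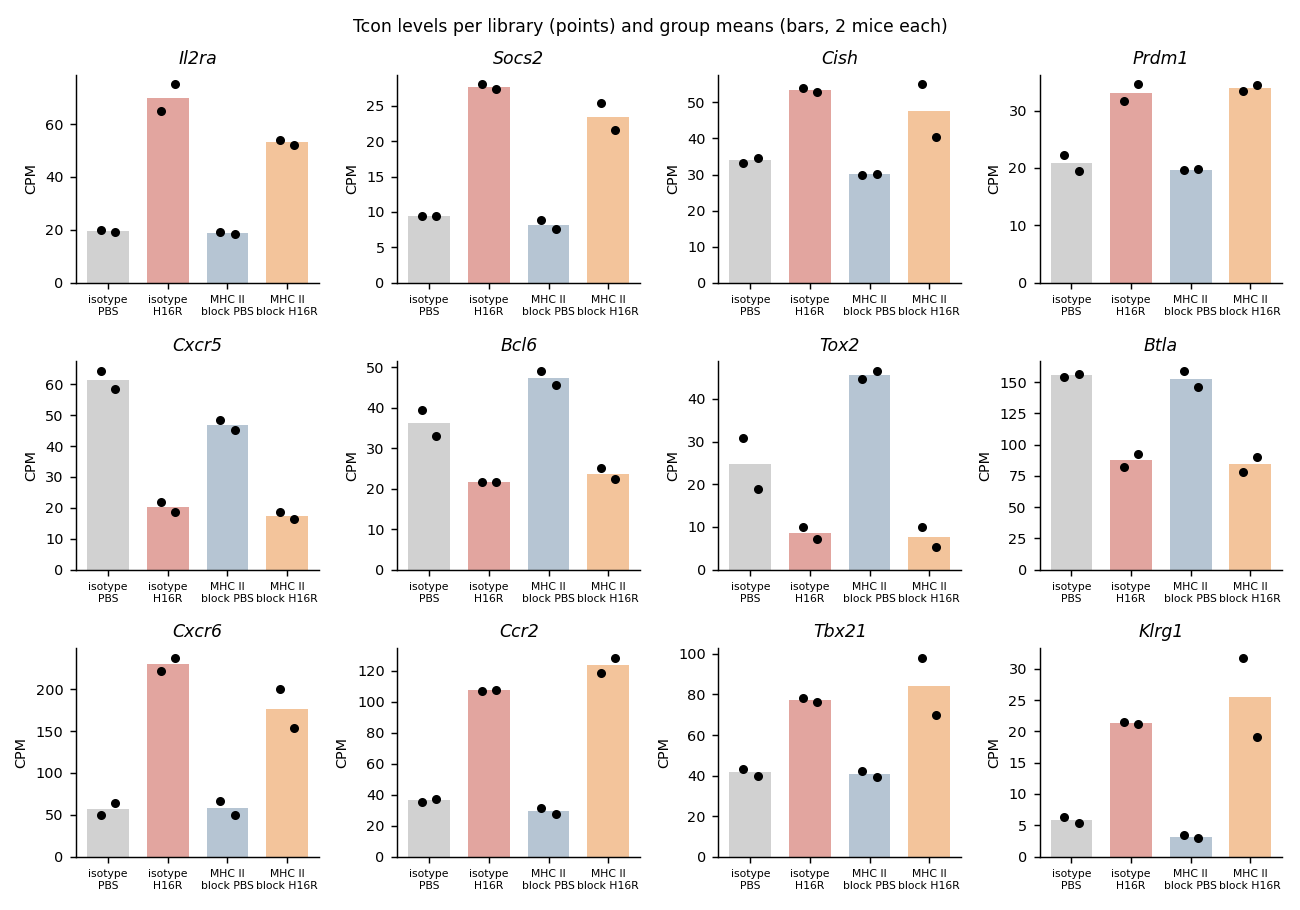
Each panel shows 1 gene, with its level in CPM on the vertical axis for the 8 Tcon libraries by group, 1 point per mouse and a bar up to the mean of the 2 mice. Il2ra rises from 18.3 to 19.8 CPM with PBS to between 52.04 and 75.0 CPM with H16R, and Cxcr5 falls from 45.3 to 64.2 CPM to 16.3 to 21.8 CPM.

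Several genes of T follicular helper cells, the CD4 cells that enter B cell follicles and help B cells, were lower with H16R, among them Cxcr5 and Bcl6 in both arms. Of 17 list members 16 passed the filter on low counts, and of these 9 fell and 2 rose, with a median of -0.614. The remaining member, Ascl2, which drives Cxcr5, had 0.447 to 2.26 CPM with PBS and 0.0383 to 0.38 CPM with H16R. Cxcr5, the receptor that guides cells to the follicle, had 64.2, 58.6, 21.8, 18.5, 48.4, 45.3, 18.7 and 16.3 CPM. The groups were far apart, and the fall was 1.51 (SE 0.08, adjusted p = 0.00010 in edgeR's quasi-likelihood test). The isotype PBS libraries, highest in Cxcr5, were also highest in B cell markers, and the part of B cells in its fall was not tested. Bcl6, whose sequence is given above, had 39.3, 33.0, 21.7, 21.5, 49.0, 45.5, 25.0 and 22.3 CPM and fell by 0.87 (SE 0.08, adjusted p = 0.00062). Tox2, a nuclear protein of this lineage, had 30.7, 19.0, 10.1, 7.25, 44.7, 46.5, 9.98 and 5.34 CPM. It fell by 2.05 (SE 0.30, adjusted p = 0.0028), with the highest values in the MHC II block PBS mice.

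Il21, the cytokine of these cells, had 11.2, 5.86, 6.84, 3.14, 48.8, 38.1, 11.4 and 9.77 CPM. Pdcd1, the gene for PD-1, had 38.8, 22.0, 21.7, 13.7, 63.9, 60.9, 31.0 and 25.2 CPM. In both, the isotype PBS libraries overlapped with the 4 H16R libraries, and the MHC II block PBS libraries were the highest of the 8. Within the isotype arm Il21 overlapped between the treatments, whereas both PBS libraries lay above both H16R libraries for Pdcd1. Il21 fell by 1.44 (SE 0.36, adjusted p = 0.019) and Pdcd1 by 0.97 (SE 0.21, adjusted p = 0.011). Il4, the cytokine that Tfh and Th2 cells share, and P2rx7, an ATP-gated channel, were the 2 members that rose, by 1.08 (SE 0.19, adjusted p = 0.0050) and 0.50 (SE 0.14, adjusted p = 0.028). Il4 is also made by basophils and mast cells, whose genes rose too, as given below, and their part in its rise was not tested. Icos, Maf and Sh2d1a did not pass. In the MHC II block arm alone 10 members fell and 1 rose, with a median of -0.903, and in the isotype arm alone 6 fell and 6 rose, with a median of -0.305. The summed level of the list was 1563 and 1520 CPM in the MHC II block PBS libraries, 990 and 1125 CPM in isotype PBS, and 937 to 1157 CPM with H16R.

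Among 18 inhibitory and costimulatory receptors, 6 fell and 2 rose, against 19.5% and 22% of all genes, with a median of -0.043. Without 1 library the median ran from -0.186 to 0.0269. By arm, 8 fell and 5 rose in the isotype arm (median 0.0568), and 9 fell and 3 rose in the MHC II block arm (median -0.302). The 6 that fell over both arms were Pdcd1, Btla, Cd200, Cd28, Tnfrsf14 and Slamf6. Btla, an inhibitory partner of Tnfrsf14, had 154, 157, 82.5, 92.2, 159, 146, 77.9 and 90.5 CPM and fell by 0.84 (SE 0.06, adjusted p = 0.00027). Both antibody arms showed the same step, of 0.83 in the isotype arm and 0.85 in the MHC II block arm in size. Slamf6, an adhesion receptor of T cells, fell by 0.72 (SE 0.08, adjusted p = 0.00091), and Cd200 by 1.00 (SE 0.14, adjusted p = 0.0021). Cd160, which NK cells carry as well, and Tnfrsf18, the gene for GITR, rose by 0.80 and 0.35. Ctla4, Tigit and Lag3 did not pass.

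Most effector and memory genes rose and most naive genes fell. Of 31 effector and memory genes, 22 rose and 2 fell, against 22% and 19.5% of all genes, with a median of 0.416. Ccr2, a receptor for inflammatory chemokines, had 35.2, 37.4, 107, 108, 31.1, 27.7, 119 and 128 CPM. Cxcr6, a receptor of tissue-homing T cells, had 50.3, 64.3, 222, 237, 66.8, 49.9, 200 and 154 CPM. In both genes the lowest H16R library was more than 2 times the highest PBS library. The rises were 1.82 (SE 0.11, adjusted p = 0.00015) and 1.80 (SE 0.15, adjusted p = 0.00040). Klrg1, a receptor of terminally differentiated T and NK cells, had 6.39, 5.39, 21.6, 21.2, 3.37, 2.97, 31.7 and 19.2 CPM and rose by 2.41 (SE 0.27, adjusted p = 0.0011). The calcium-binding proteins S100a4 and S100a6 rose by 0.74 (SE 0.07, adjusted p = 0.00072) and 0.87 (SE 0.08, adjusted p = 0.00050). Itga4, an integrin chain, and Ahnak, a large scaffold protein, were the 2 that fell, by 0.27 and 0.44. By arm, 18 rose and 4 fell in the isotype arm (median 0.295) and 24 rose and 2 fell in the MHC II block arm (median 0.597). Several of these genes are also expressed by NK and myeloid cells, whose markers are given below.

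Of 24 naive and recirculation genes, 15 fell and 1 rose, against 19.5% and 22% of all genes, with a median of -0.317. Id3, an inhibitor of E proteins that keeps T cells quiescent, had 29.5, 29.2, 19.2, 15.9, 26.2, 27.5, 15.1 and 14.2 CPM. No H16R library reached the lowest PBS library, and the fall was 0.81 (SE 0.07, adjusted p = 0.00050 in edgeR's quasi-likelihood test). Il6st, the signalling chain of the IL-6 receptor, fell by 0.64 (SE 0.09, adjusted p = 0.0022) and Ets2, a transcription factor, by 0.36 (SE 0.05, adjusted p = 0.0020). Among the others, Ccr7, Klf2, Tcf7 and Bach2 passed, with falls of 0.36, 0.43, 0.36 and 0.54. Ccr9, a gut-homing receptor, was the single riser, by 0.77 (SE 0.08, adjusted p = 0.00080). Il7r, the IL-7 receptor, did not pass. The isotype arm alone had 14 falling and 2 rising, and the MHC II block arm alone 18 and 1.

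Of 21 genes of T helper 1, 2 and 17 cells, 9 rose and 4 fell, with a median of 0.22. Tbx21, the gene for T-bet, the factor of Th1 cells, had 43.4, 39.8, 78.2, 76.5, 42.3, 39.2, 97.9 and 70.1 CPM and rose by 0.97 (SE 0.10, adjusted p = 0.00091). Il12rb2, the Th1 chain of the IL-12 receptor, rose by 1.33 (SE 0.15, adjusted p = 0.0011). The Th2 cytokine Il13 had 0.409, 0.263, 2.19, 3.11, 0.186, 0.0487, 1.84 and 1.46 CPM. All 4 PBS libraries were under 0.5 CPM, so that Il13 entered the test through the H16R libraries alone, and it is 1 of the 9 that rose. Il1rl1, the IL-33 receptor found on Th2 cells, Tregs and mast cells, had 6.54, 9.20, 27.4, 26.6, 8.42, 8.44, 17.1 and 19.3 CPM and rose by 1.44 (SE 0.16, adjusted p = 0.0011). The 4 that fell were Stat6 and 3 genes of Th17 cells, Il23r, Ccr6 and Il1r1, by 0.88, 0.61 and 0.81. Only 2 of the list fell without isotype H16R replicate 1, either MHC II block PBS library or MHC II block H16R replicate 2. Il13 and Il1rl1 are expressed by mast cells and basophils as well, and Tbx21 and Il12rb2 by NK cells, whose 18 genes had a median of 0.939, as given below. The part of these cells in the rises was not tested. Il17a itself differed by -1.03 and did not pass, and Il17f, Il22 and Il5 were below the filter on low counts. The list's median was 0.444 in the isotype arm, with 12 rising and 3 falling, and 0.0339 in the MHC II block arm, with 8 and 4.

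Genes that T cell receptor signals switch on were mostly lower with H16R. Of 28 list members, 19 fell and 2 rose, with a median of -0.379. Nfatc1, the calcium-dependent factor NFATc1, had 417, 412, 293, 277, 478, 459, 299 and 271 CPM. The groups did not overlap, and the fall was 0.63 (SE 0.05, adjusted p = 0.00041 in edgeR's quasi-likelihood test). Nr4a2, an orphan nuclear receptor induced early after stimulation, had 43.6, 44.2, 25.8, 28.0, 39.5, 36.2, 19.0 and 21.8 CPM and fell by 0.80 (SE 0.07, adjusted p = 0.00043). Nr4a3, of the same family, fell by 0.55 (SE 0.06, adjusted p = 0.0011). Its isotype H16R (34.2 and 39.6 CPM) and MHC II block PBS libraries (36.7 and 36.4 CPM) overlapped, and its isotype PBS libraries stood at 58.6 and 55.2 CPM. Dusp5, a phosphatase of ERK, and Ier3, a stress-induced regulator, were the 2 that rose, by 0.34 and 0.55, and Dusp5 is also a STAT5 target of the list above. In the MHC II block arm alone 17 fell and 4 rose, and in the isotype arm alone 20 fell and 2 rose.

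A fall was also seen in immediate early and heat shock genes, a list that marks fresh stress to cells, including that of cell isolation. Of 18 genes, 13 fell and 0 rose, with a median of -0.383. Fosb, an AP-1 subunit, had 1808, 2149, 907, 1086, 1781, 1726, 1147 and 1001 CPM and fell by 0.85 (SE 0.09, adjusted p = 0.0011). Klf6 fell by 0.53 (SE 0.04, adjusted p = 0.00033) and Jun by 0.39 (SE 0.06, adjusted p = 0.0039). Hspa1a, an inducible heat shock protein, had 120, 165, 89.6, 74.8, 156, 222, 43.5 and 34.7 CPM. It fell by 1.53 (SE 0.32, adjusted p = 0.0094), and its near-identical neighbour Hspa1b by 1.21 (SE 0.33, adjusted p = 0.027). Reads of these 2 copies may have been split between them. The lists share Fos, Fosb, Ier2, Egr1 and Junb, and the part of cell handling in the fall of T cell receptor genes was not tested.

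Cell cycle genes rose. All 34 mitotic genes passed the test and were higher with H16R, against 22% of all genes, with a median of 0.749. All 34 had no overlap between the H16R and PBS libraries, against 16.5% of all genes that were higher without overlap. Ube2c, which marks mitotic proteins for breakdown, rose by 0.98 (SE 0.07, adjusted p = 0.00032). Top2a, which untangles chromosomes, had 121, 104, 187, 186, 131, 124, 215 and 210 CPM and rose by 0.73 (SE 0.05, adjusted p = 0.00027 in edgeR's quasi-likelihood test). Mki67, the proliferation marker Ki-67, had 216, 189, 286, 324, 224, 206, 307 and 308 CPM, a rise of 0.55 (SE 0.06, adjusted p = 0.0011). Both arms showed the step, with a median over the list of 0.664 in the isotype arm and 0.856 in the MHC II block arm. The other called members ranged up to the 0.98 of Ube2c and down to 0.32 (Ndc80).

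Of 34 genes of DNA replication and S phase, 29 rose and 0 fell, with a median of 0.377. Rrm2, the S phase subunit of ribonucleotide reductase, had 37.8, 33.0, 69.2, 67.9, 38.4, 40.3, 78.8 and 80.2 CPM. It rose by 0.98 (SE 0.05, adjusted p = 0.00010 in edgeR's quasi-likelihood test), with every H16R library well above every PBS library. Fen1, a flap nuclease, rose by 0.61 (SE 0.05, adjusted p = 0.00036), Uhrf1, which maintains DNA methylation, by 0.47 (SE 0.04, adjusted p = 0.00046) and Mcm7, of the replicative helicase, by 0.35 (SE 0.04, adjusted p = 0.00091). Pcna and Cdt1 did not pass. When all 16 Tcon libraries shared one estimate of the spread, 7 of the 34 passed, with a median of 0.381, against 31.1% of all genes in that fit.

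Mitotic genes are known to carry repeated CCAAT boxes, bound by the factor NF-Y, near their starts, and 3 that rose are shown for this reason. Sequences are from RefSeq on GRCm38.p6, on the minus strand, in the direction of the gene. No gene, exon or UTR of the GRCm38 annotation used for gene types overlaps them. Capitals mark CCAAT or, where the box lies on the other strand, ATTGG. The stretches are chr2:129297214-129297342 for Ckap2l, a spindle protein, chr11:99024235-99024424 for Top2a and chr7:135716508-135716575 for Mki67.
Ckap2l: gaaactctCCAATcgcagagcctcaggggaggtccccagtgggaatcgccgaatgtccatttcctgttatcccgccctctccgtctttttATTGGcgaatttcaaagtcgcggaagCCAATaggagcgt
Top2a: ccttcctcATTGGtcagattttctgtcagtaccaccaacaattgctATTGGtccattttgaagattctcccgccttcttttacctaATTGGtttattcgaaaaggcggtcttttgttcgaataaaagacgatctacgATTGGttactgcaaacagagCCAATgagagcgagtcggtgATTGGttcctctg
Mki67: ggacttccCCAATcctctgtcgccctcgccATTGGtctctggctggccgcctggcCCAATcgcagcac
Top2a held 6 boxes and the other pair 3 each. At least 2 boxes were found in 16 of 30 windows of mitotic genes (53.3%), 29.4% of windows of S phase genes and 11.7% of all windows. Ckap2l had 12.3, 12.4, 22.6, 22.8, 14.8, 14.2, 24.5 and 26.8 CPM and rose by 0.85 (SE 0.05, adjusted p = 0.00016).

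Subunits of the respiratory chain and ATP synthase rose slightly and together. Of 29 genes, 25 rose and 0 fell, with a median of 0.187, and the 29 differences ran from 0.04 to 0.31. Cox6b1, of complex IV, had 73.4, 76.2, 91.9, 86.2, 80.5, 85.1, 101 and 94.7 CPM and rose by 0.25 (SE 0.04, adjusted p = 0.0041). Ndufa4 rose by 0.24 (SE 0.03, adjusted p = 0.0020). Over the alternatives tried, 19 to 27 of the 29 passed. Of 18 glycolysis genes, 5 rose (Slc2a3, Gpi1, Tpi1, Ldha and Slc16a3) and 2 fell (Slc2a1 and Pfkfb3), against 22% and 19.5% of all genes. Only 3 rose without either isotype PBS library or isotype H16R replicate 1. Slc2a3, the glucose transporter GLUT3, had 84.7, 82.0, 127, 124, 70.7, 71.7, 112 and 107 CPM and rose by 0.60 (SE 0.03, adjusted p = 0.00010).

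**Figure D3:**
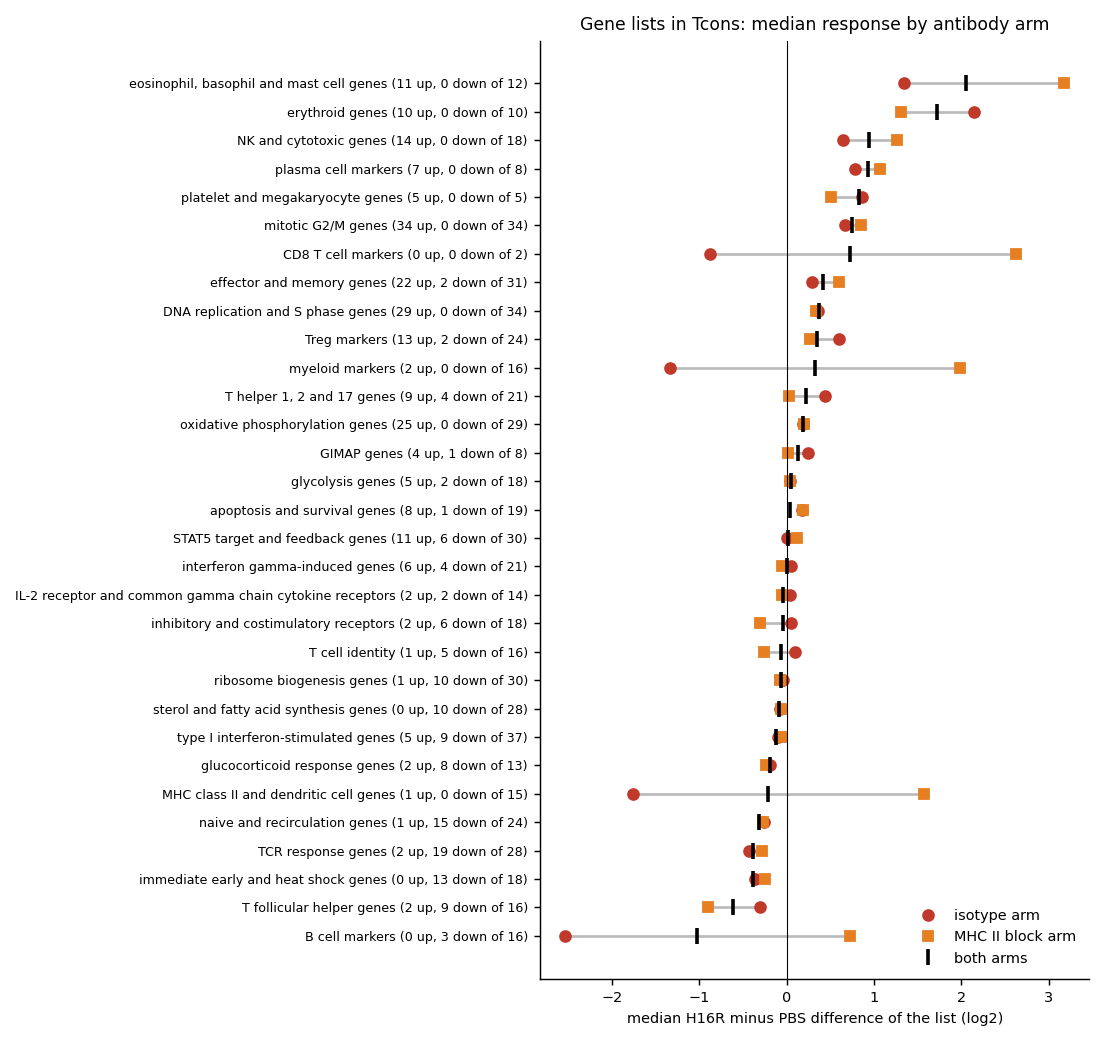
For each gene list, the points give the median log2 difference of H16R minus PBS in Tcons in the isotype arm and in the MHC II block arm, on a horizontal axis in log2 units. Mitotic genes lie at 0.664 and 0.856, whereas B cell markers lie at -2.53 and 0.725, on opposite sides of 0.

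Several Treg genes were higher in the CD25- fraction of H16R mice. Of 24 markers, 13 rose and 2 fell, with a median of 0.347. Foxp3, the lineage factor of Tregs, had 61.3, 55.7, 133, 139, 69.9, 79.0, 98.7 and 86.9 CPM. The lowest H16R library was above the highest PBS library, and the rise was 0.77 (SE 0.17, adjusted p = 0.013). Lrrc32, the gene for GARP, which holds latent TGF-beta on Tregs, had 18.9, 16.0, 84.8, 80.7, 20.9, 25.7, 52.4 and 45.9 CPM and rose by 1.66 (SE 0.23, adjusted p = 0.0023). Il10, an anti-inflammatory cytokine, had 9.20, 7.78, 19.7, 18.2, 12.7, 11.9, 28.2 and 31.0 CPM and rose by 1.22 (SE 0.07, adjusted p = 0.00017). Ikzf2, the gene for Helios, and Ctla4 did not pass, and Capg, an actin-binding protein, and Itgb8, which activates TGF-beta, were the 2 that fell, by 0.09 and 0.89. The small fall of Capg did not pass without any of 6 of the libraries (adjusted p = 0.12 to 0.20).

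Against the Treg library of the same mouse, Tcon Foxp3 stood at 7.04% to 9.02% with PBS and at 7.84% to 11.3% with H16R. For Lrrc32 the share was 5.43% to 7% with PBS and 8.32% to 13.3% with H16R. Ikzf2 stood at 22.3% to 32.5% with PBS and at 18.5% to 23.9% with H16R, and the shares of Il10 (23% to 33.8% with PBS, 9.15% to 12.3% with H16R), Ctla4 (17.2% to 26.2% and 13% to 15.2%), Tigit (29.8% to 51.3% and 12.2% to 17.3%) and Capg (37% to 42.6% and 22.3% to 24.2%) were lower with H16R. Treg genes thus moved in both directions in share, and Il10 rose in Tcons while its share fell. The summed level of the 24 markers was 943 to 1166 CPM with PBS and 1208 to 1524 CPM with H16R. In the isotype arm alone 17 of the 24 rose and 1 fell (median 0.599), and in the MHC II block arm alone 11 rose and 4 fell (median 0.27). Whether Foxp3+ cells that escaped the CD25 selection are a part of these changes was not tested.

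NK and cytotoxic genes were higher in H16R mice. Of 18 genes, 14 rose and 0 fell, with a median of 0.939, and their summed level was 563 to 777 CPM with PBS and 1243 to 1749 CPM with H16R. The isotype arm alone had 12 rising and 1 falling (median 0.652), and the MHC II block arm alone had 18 rising (median 1.26). Ccl5, a chemokine of effector and NK cells, had 186, 177, 362, 387, 129, 121, 483 and 432 CPM and rose by 1.46 (SE 0.16, adjusted p = 0.0011). Klrb1c, the NK receptor NK1.1, had 41.0, 43.8, 72.8, 80.0, 31.4, 28.2, 66.3 and 49.9 CPM and rose by 0.90 (SE 0.09, adjusted p = 0.00082). Ctsw, a protease of cytotoxic cells, rose by 0.72 (SE 0.08, adjusted p = 0.0013), and Fasl, the death ligand, by 0.67 (SE 0.08, adjusted p = 0.0016).

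Gzma, granzyme A, had 26.0, 9.72, 32.2, 36.7, 1.46, 2.02, 258 and 194 CPM. Its rise of 3.54 carried a large error (SE 1.28, adjusted p = 0.070), and the adjusted p was above 0.1 when either MHC II block PBS library, isotype PBS replicate 2 or MHC II block H16R replicate 1 was left out (0.18, 0.19, 0.12 and 0.10). Gzmb, granzyme B, had 27.7, 40.2, 51.6, 57.0, 23.8, 20.6, 104 and 108 CPM, a rise of 1.47 (SE 0.31, adjusted p = 0.011). Prf1 and Eomes did not pass. The CD8 T cell markers Cd8a and Cd8b1 summed to 6.96 to 26.4 CPM with PBS and 11.2 to 32.3 CPM with H16R, and neither passed over both arms. Cd8a had 12.1, 8.28, 2.80, 5.07, 0.558, 0.584, 5.88 and 12.5 CPM, which gave a fall of 1.38 in the isotype arm (adjusted p = 0.022) and a rise of 4.02 in the MHC II block arm (adjusted p = 0.00040). Cd8b1 rose in the MHC II block arm, by 1.23 (adjusted p = 0.0064), and differed by -0.38 in the isotype arm (adjusted p = 0.29). Both passed the test of the difference between arms (adjusted p = 0.00041 and 0.021 in edgeR's quasi-likelihood test). This is the arm in which Gzma, Gzmb and Ccl5 rose more, and the part of CD8 T cells in those rises was not tested.

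Genes of eosinophils, basophils and mast cells rose with H16R, from low levels. Of 13 genes 12 passed the filter on low counts, and of these 11 rose and 0 fell, with a median of 2.05. The filter asked for 4 libraries above 0.5 CPM, so a gene near 0 with PBS could pass through the H16R libraries alone. Ear1, below it, had 0.105 to 0.292 CPM with PBS and 0.36 to 1.47 CPM with H16R, and the summed level of the list was 32.1 to 66.8 CPM with PBS and 85.5 to 193 CPM with H16R. Of the 12, 9 rose and 1 fell in the isotype arm alone (median 1.34), and in the MHC II block arm alone all 12 rose (median 3.18). Prss34, a protease of basophils and mast cells, had 1.79, 0.788, 11.2, 9.50, 1.35, 0.633, 32.7 and 35.0 CPM and rose by 4.05 (SE 0.48, adjusted p = 0.0014). Epx, the eosinophil peroxidase, had 0.945, 0.657, 9.31, 9.39, 1.14, 1.48, 27.6 and 23.8 CPM and rose by 3.94 (SE 0.19, adjusted p = 0.00010). Mcpt8, a basophil protease, rose by 2.89 (SE 0.26, adjusted p = 0.00057). Ear6, an eosinophil ribonuclease, had 0.255, 0.105, 1.11, 0.992, 0.159, 0.268, 3.34 and 2.68 CPM and entered the test through the H16R libraries alone. Il5ra, the IL-5 receptor, did not pass. These genes were low in PBS mice.

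The 12 largest rises, among genes with a mean above 5 CPM and the same direction in both arms, included several genes of such cells. Beside Prss34, Epx and Mcpt8 they held the mast cell proteases Mcpt1, with 2.02, 3.52, 25.2, 34.3, 4.33, 3.67, 58.2 and 58.1 CPM, and Mcpt4, with a rise of 2.83. The 4 red cell genes among them, the globins Hba-a1, Hbb-bs and Hbb-bt and the membrane protein Slc4a1, rose by 2.86, 2.90, 2.95 and 3.71. Gzma, Klrg1 and Fkbp11, a protein-folding enzyme of secretory cells (2.30), complete the 12. Hba-a1 had 4.78, 2.18, 27.7, 21.6, 1.59, 2.75, 11.8 and 20.7 CPM. Its near-identical copy Hba-a2 was listed at 0 in all 8 libraries, and reads of these copies, like those of the 2 beta globins, may have been split or merged in counting.

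Of 13 erythroid genes 10 were tested and these 10 rose, with a median of 1.72, and the summed level of the list was 280 to 367 CPM with PBS and 399 to 672 CPM with H16R. Of 8 platelet and megakaryocyte genes 5 were tested and these 5 rose, with a median of 0.831, although Treml1 entered the test through the H16R libraries alone, and 3 rose without either isotype H16R library or MHC II block H16R replicate 1. Pf4, platelet factor 4, had 2.33, 2.81, 6.43, 6.25, 2.05, 1.65, 3.66 and 2.78 CPM and rose by 1.06 (SE 0.17, adjusted p = 0.0035). In the isotype arm alone the 10 erythroid genes rose (median 2.15), and in the MHC II block arm alone 8 did (median 1.31). Of 8 plasma cell markers 7 rose, with a median of 0.928, and by arm 7 rose and 1 fell in the isotype arm and all 8 rose in the MHC II block arm. Mzb1, an endoplasmic reticulum protein of antibody-secreting cells, rose by 1.25 (SE 0.17, adjusted p = 0.0022), Sdc1, the gene for CD138, by 1.09 (SE 0.17, adjusted p = 0.0034) and Xbp1 by 0.72 (SE 0.10, adjusted p = 0.0021). Prdm1 belongs to this list as well as to the STAT5 list, and the part of plasma cells in its rise was not tested.

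B cell, myeloid and MHC class II genes had no common direction in both arms. Of 16 B cell markers, 3 passed over both arms (Pax5, Blk and Cd37), all lower, with a median of -1.02. Without 1 library the median ran from -1.55 to -0.413. In the isotype arm alone 16 fell and in the MHC II block arm alone 8 rose. Pax5, the B cell lineage factor, had 174, 132, 11.6, 17.9, 18.5, 16.3, 9.71 and 22.3 CPM. Its fall of 1.77 (SE 0.71, adjusted p = 0.091) set the 2 isotype PBS libraries against the other 6, and the number of B cell markers that fell was 0 without either isotype PBS or either isotype H16R library and up to 8 without MHC II block H16R replicate 2. Of 16 myeloid markers, 2 passed and rose, Ly6c2, which memory T cells also carry, by 1.12 and Fcgr3, an Fc receptor, by 1.19. In the isotype arm alone 14 fell and 1 rose, and in the MHC II block arm alone 15 rose. Of 15 MHC class II and dendritic cell genes, only Xcr1, of cross-presenting dendritic cells, passed, with a rise of 1.03, and it did not pass without either MHC II block PBS library (adjusted p = 0.11 and 0.12). The block arm alone gave 14 rising and the isotype arm alone 14 falling.

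**Figure D4:**
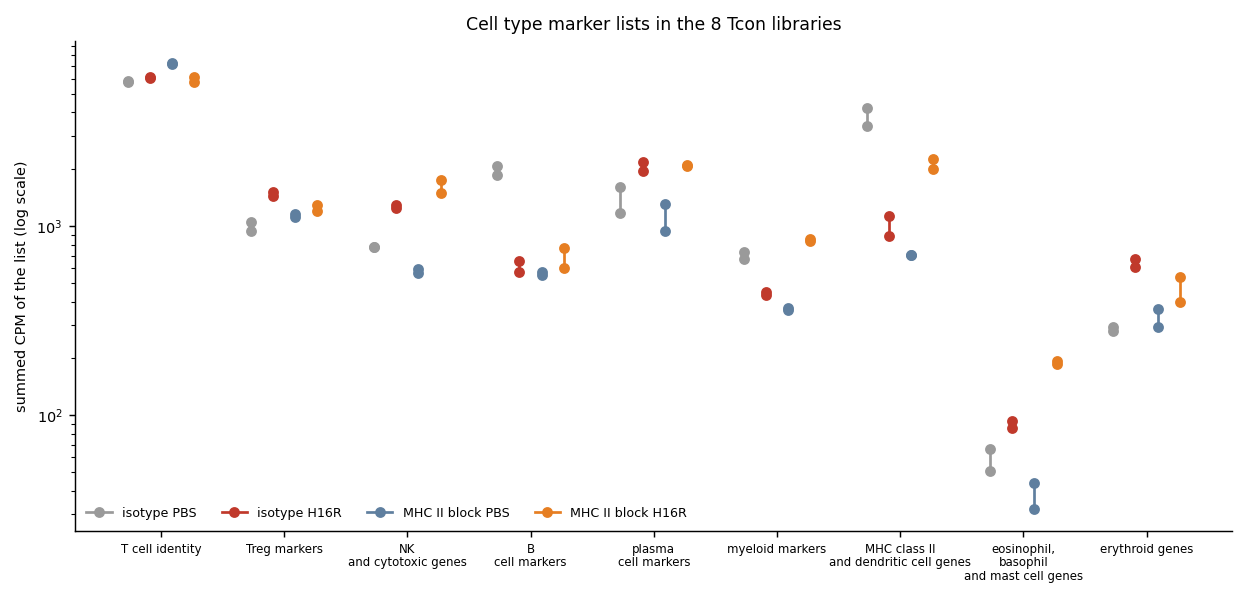
Each point is the summed CPM of a list of cell type markers (lists along the horizontal axis) in 1 of the 8 Tcon libraries, on a log vertical axis, and a line joins the 2 mice of a group. B cell markers lie at 2072 and 1872 CPM in the isotype PBS libraries against 551 to 767 CPM in the other 6, and NK and cytotoxic genes lie higher in all H16R libraries (1243 to 1749 CPM) than in all PBS libraries (563 to 777 CPM).

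The T cell identity genes changed by at most 0.43 on the log2 scale over both arms, and by up to 0.61 in the MHC II block arm alone (Cd28). Of 16, 5 fell (Cd28, Cd4, Cd5, Cd6 and Cd247) and 1 rose (Thy1), with a median of -0.061. Cd4 had 672, 615, 589, 552, 928, 902, 639 and 635 CPM and fell by 0.35 (SE 0.07, adjusted p = 0.011). Cd28, the main costimulatory receptor, fell by 0.43 (SE 0.09, adjusted p = 0.0100), and Thy1 rose by 0.23 (SE 0.06, adjusted p = 0.017). Cd3e, Lck and Zap70 did not pass. In the isotype arm alone 5 of the 16 rose and 2 fell, and in the MHC II block arm alone 0 rose and 11 fell. In the fit with all 16 Tcon libraries 1 of the 16 fell.

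The largest falls included several genes whose level in PBS mice differed between the antibody arms, with 2 mice each. This difference between PBS groups was not tested. Padi4, which converts arginine to citrulline in proteins, had 6.82, 2.52, 1.72, 1.54, 43.7, 30.3, 3.39 and 3.81 CPM. Nrn1, a surface protein of anergic and regulatory T cells, had 20.2, 16.9, 11.3, 10.9, 44.8, 40.3, 6.76 and 6.76 CPM. Both were highest in the MHC II block PBS mice and fell there to the level of the isotype arm or below. Over both arms they fell by 2.54 (SE 0.46, adjusted p = 0.0058) and 1.69 (SE 0.37, adjusted p = 0.011). Sostdc1, Cacna1d, Cdh23 and Synpo were likewise highest in MHC II block PBS and fell by 2.33, 1.72, 1.66 and 1.63. Fam43a had 81.2, 66.0, 15.6, 14.8, 41.0, 48.2, 15.9 and 13.7 CPM and fell in both arms, by 1.94 together (SE 0.15, adjusted p = 0.00038). Rgs16, which dampens chemokine receptor signals, fell by 1.69 and Apol8 by 1.56, with no overlap of the PBS and H16R libraries. Tox2 and Pax5, given above, and Fam129c, which like Pax5 was highest in isotype PBS (41.5 and 54.5 CPM), complete the 12.

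Interferon genes passed about as often as genes in general, of which 22% were higher and 19.5% lower. Of 37 type I interferon-stimulated genes, 9 fell and 5 rose (Ifi44, Ifi47, Isg20, Oas1a and Ly6e), with a median of -0.117. The number that fell ran from 3 without MHC II block PBS replicate 1 to 14 without isotype PBS replicate 2, and the number that rose was 3 without isotype PBS, isotype H16R, MHC II block PBS or MHC II block H16R replicate 2. Isg20, an RNA exonuclease, rose by 0.59 (SE 0.07, adjusted p = 0.0015), and Parp14 fell by 0.33 (SE 0.06, adjusted p = 0.0049). Of 21 genes induced by interferon gamma, 6 rose, among them the GTPase Gbp3 by 0.52 (SE 0.08, adjusted p = 0.0029), and 4 fell (Irf1, Gbp4, Socs1 and Nlrc5), with a median of 0.007. Of 28 genes of sterol and fatty acid synthesis, 10 fell and 0 rose, with a median of -0.084. Insig1, the sterol sensor, had 58.5, 62.3, 33.9, 37.9, 60.7, 59.0, 39.3 and 44.0 CPM and fell by 0.64 (SE 0.07, adjusted p = 0.0010).

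Of 30 ribosome biogenesis genes, 10 fell, Utp20 the most (0.39), and Rrs1 rose by 0.11, with a median of -0.063. Of 13 glucocorticoid response genes, 8 fell and 2 rose (Zbtb16 and Sesn1), with a median of -0.185. Per1, a clock gene that glucocorticoids induce, had 322, 344, 196, 222, 305, 307, 194 and 172 CPM and fell by 0.71 (SE 0.06, adjusted p = 0.00039). Zbtb16, the gene for PLZF, a factor of innate-like T cells, rose by 0.89 (SE 0.14, adjusted p = 0.0039). The 8 falls were 5 without isotype PBS replicate 1, isotype H16R replicate 2, MHC II block PBS replicate 2 or MHC II block H16R replicate 2, and 3 in the fit with all 16 Tcon libraries. Of 19 apoptosis and survival genes, 8 rose and Birc3 fell, with a median of 0.044, and Bik, a pro-death Bcl2 family member, rose by 1.11 (SE 0.19, adjusted p = 0.0045). Of 8 GIMAP genes, GTPases of lymphocyte survival, Gimap3, Gimap4, Gimap7 and Gimap9 rose and Gimap6 fell. Gimap7 had 59.1, 50.5, 117, 96.6, 55.1, 56.4, 105 and 88.7 CPM and rose by 0.88 (SE 0.09, adjusted p = 0.00080).

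The response to H16R differed between the antibody arms for 1597 of 12257 genes (13%) by the interaction term in edgeR's quasi-likelihood model. The difference was higher in the MHC II block arm for 1119 genes (9.13%) and lower for 478 (3.9%), and in 1076 of the 1597 the response had opposite signs in the arms. All 16 B cell markers, all 16 myeloid markers and all 15 MHC class II and dendritic cell genes were among them. So were 13 of 16 T cell identity genes, 9 of 16 Tfh genes, 13 of 24 Treg markers and 13 of 31 effector and memory genes, against 3 of 34 mitotic and 1 of 34 S phase genes. Fcer2a, the low-affinity IgE receptor of B cells, had 54.7, 24.5, 0.411, 1.05, 0.372, 0.414, 1.43 and 2.61 CPM. The isotype PBS libraries alone were high, which gave -5.77 in the isotype arm and 2.40 in the MHC II block arm.

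Among T cell genes the arms differed for Foxp3, with 1.22 in the isotype arm and 0.32 under the block, a difference of -0.90 (SE 0.12, adjusted p = 0.0011). Lrrc32 rose by 2.25 and 1.07, a difference of -1.17 (SE 0.16, adjusted p = 0.0013). The rise of Il2ra was 1.84 and 1.496, a difference of -0.35 (SE 0.11, adjusted p = 0.093), which no longer passed in DESeq2 (0.12) or with the replicate number as a block (0.12). Socs2, Cish, Cxcr5 and Bcl6 did not pass the interaction test, and neither did Mki67, Top2a or Rrm2. For Cish the difference between arms was 0.01 (SE 0.17) and for Mki67 -0.08 (SE 0.11). Gzmb rose by 0.68 and 2.26 and Ccl5 by 1.05 and 1.88, differences of 1.58 (SE 0.21, adjusted p = 0.0010) and 0.83 (SE 0.10, adjusted p = 0.00051).

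H16R was also compared with the other IL-2 molecules in Tcons, each given at 25 µg on day 0 and read on day 4. WT IL-2 is the human cytokine without exchanges, and 3x carries 3 exchanges and is weaker than H16R. These are 2 pairs of molecules with 4 libraries each, 2 per antibody arm, fitted with all 16 Tcon libraries. Against WT IL-2, 7 of 12529 genes (0.0559%) passed, 2 higher (0.016%) and 5 lower (0.0399%) with H16R, and 749 had an unadjusted p under 0.05. Against 3x, 174 genes (1.39%) passed, 133 higher (1.06%) and 41 lower (0.327%), and 138 and 101 when libraries were scaled by total counts alone. Without 1 library the count against 3x ran from 18 (isotype H16R replicate 2 or isotype 3x replicate 2) to 479 (isotype WT IL-2 replicate 2). With p-values adjusted over both pairs together the counts were 17 and 85. The median SE of a difference was 0.092.

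Against WT IL-2, Cxcl10, a chemokine for CXCR3+ cells, was lower with H16R by 1.38 (95% interval -1.84 to -0.92), Ccrl2, an atypical chemokine receptor, by 0.84 (-1.14 to -0.54) and Zfp36, which destabilises cytokine mRNAs, by 0.43 (-0.59 to -0.27). F2r, the thrombin receptor, was higher by 0.43 (0.28 to 0.58) and Ppp1r3f by 0.56 (0.36 to 0.77). All 5 had an adjusted p of 0.096 in edgeR's quasi-likelihood test, or 0.036 to 0.050 when adjusted over both pairs. When 1 of the 16 libraries was left out, 0 to 16 genes passed.

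Against 3x, Fkbp11 was higher with H16R by 1.80 (0.94 to 2.66), Eaf2, of transcription elongation, by 1.71 (1.07 to 2.36) and Cacna1h, a calcium channel, by 1.47 (0.88 to 2.06). Igfbp4, a naive T cell gene, was lower by 0.62 (-0.82 to -0.42), B430306N03Rik by 0.58 (-0.81 to -0.34) and Als2cl by 0.47 (-0.67 to -0.27). Prdm1 was higher by 0.61 (0.35 to 0.88, adjusted p = 0.049, or 0.078 over both pairs). Cxcr6 and Il10 were higher by 0.54 and 1.05, each with an adjusted p of 0.091, or 0.15 over both pairs. Over the 8 genes recomputed for this pair, 47 of 128 calls were lost when a library was left out, with those of Fkbp11, Cacna1h, B430306N03Rik, Als2cl, Cxcr6 and Il10 lost without either isotype H16R library. Plasma cell markers moved with these genes: 6 of 8 were higher with H16R than with 3x, with a median of 1.42, and Prdm1 is 1 of the 8. The part of plasma cells in the differences of Fkbp11, Eaf2 and Prdm1 was not tested.

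None of 5 genes of the IL-2 response given above passed for H16R against WT IL-2, with intervals as follows. Il2ra differed by 0.41 (95% interval 0.13 to 0.70, adjusted p = 0.68), Socs2 by 0.09 (-0.16 to 0.34), Cish by 0.01 (-0.29 to 0.31), Cxcr5 by -0.51 (-0.87 to -0.16) and Mki67 by -0.17 (-0.62 to 0.28). Against 3x, Il2ra differed by 0.35 (0.07 to 0.63, adjusted p = 0.24), Socs2 by 0.46 (0.21 to 0.71, adjusted p = 0.10), Cish by 0.12 (-0.18 to 0.42) and Mki67 by 0.71 (0.25 to 1.16, adjusted p = 0.15).

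Side by side, and sharing the same 4 PBS libraries, H16R, WT IL-2 and 3x against PBS gave 3892 (31.1%), 3412 (27.2%) and 1238 (9.88%) called genes in the fit of 16 libraries. Higher were 16.1%, 14.8% and 4.71% of all genes, and lower 14.9%, 12.4% and 5.17%. Of the 34 mitotic genes, 30 rose with H16R, 30 with WT IL-2 and 0 with 3x, with medians of 0.748, 0.744 and 0.173. Of the 30 STAT5 genes, 10, 10 and 8 rose and 3, 3 and 3 fell. Of 31 effector and memory genes, 19, 22 and 7 rose. Of the 12 eosinophil, basophil and mast cell genes, 9, 11 and 6 rose. Of 10 erythroid genes, 8, 8 and 0 rose, with medians of 1.78, 2.18 and 0.52. Of 8 plasma cell markers, 7, 7 and 0 rose and with 3x 1 fell, with medians of 0.919, 1.24 and -0.264. Whether the mitotic genes were carried by these cells was not tested. In the test of H16R against 3x itself, 0 mitotic, 0 erythroid and 0 eosinophil, basophil and mast cell genes passed, with medians of 0.579, 1.19 and 0.506, and 3 effector and memory genes did.

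The Treg libraries of the same 8 mice were set beside the Tcons to show where the Tcon response differed. In Tregs 6914 of 11892 genes (58.1%) passed for H16R against PBS, 29.2% higher and 29% lower, and the difference of the responses, tested with the mouse as a block, passed for 6485 of 12574 genes (51.6%). The response was higher in Tregs for 3395 of them (27%) and lower for 3090 (24.6%), but when libraries were scaled by total counts alone the split was 2406 and 4096. Il2ra rose less in Tregs, by 0.41, a difference of -1.24 (SE 0.07, adjusted p = 2.1e-06). Cish rose by 0.66 in Tcons and differed by 0.07 in Tregs (adjusted p = 0.25), a difference of -0.57 (SE 0.08, adjusted p = 0.00034). Tregs had more of both transcripts with PBS, at 349 to 393 CPM of Il2ra and 179 to 234 CPM of Cish.

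Of 16 Tfh genes, the response was higher in Tregs for 14 and lower for 1. Among 18 inhibitory and costimulatory receptors it was higher for 15 and lower for 2, against 27% and 24.6% of all genes. Slamf6 and Pdcd1 fell in Tcons but rose in Tregs, by 0.20 and 0.57, differences of 0.94 (SE 0.06, adjusted p = 4.3e-06) and 1.57 (SE 0.18, adjusted p = 9.9e-05). Nfatc1 and Cd4 also rose in Tregs, by 0.27 and 0.44, against falls in Tcons. Cxcr5 fell in both, by 1.51 in Tcons and 0.38 in Tregs, and so did Bcl6, by 0.87 and 0.33. Il10 rose more in Tregs (2.63, a difference of 1.43), and Gzmb much more (4.96, a difference of 3.45). All 34 mitotic genes rose in Tregs as well, with a median of 0.749. S phase genes, of which 29 of 34 rose in Tcons, gave 6 rising and 12 falling in Tregs, and Mcm7 fell there by 0.32, a difference of -0.65 (SE 0.10, adjusted p = 0.00043). Of 30 ribosome biogenesis genes, 30 fell in Tregs and 10 in Tcons.

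**Figure D5:**
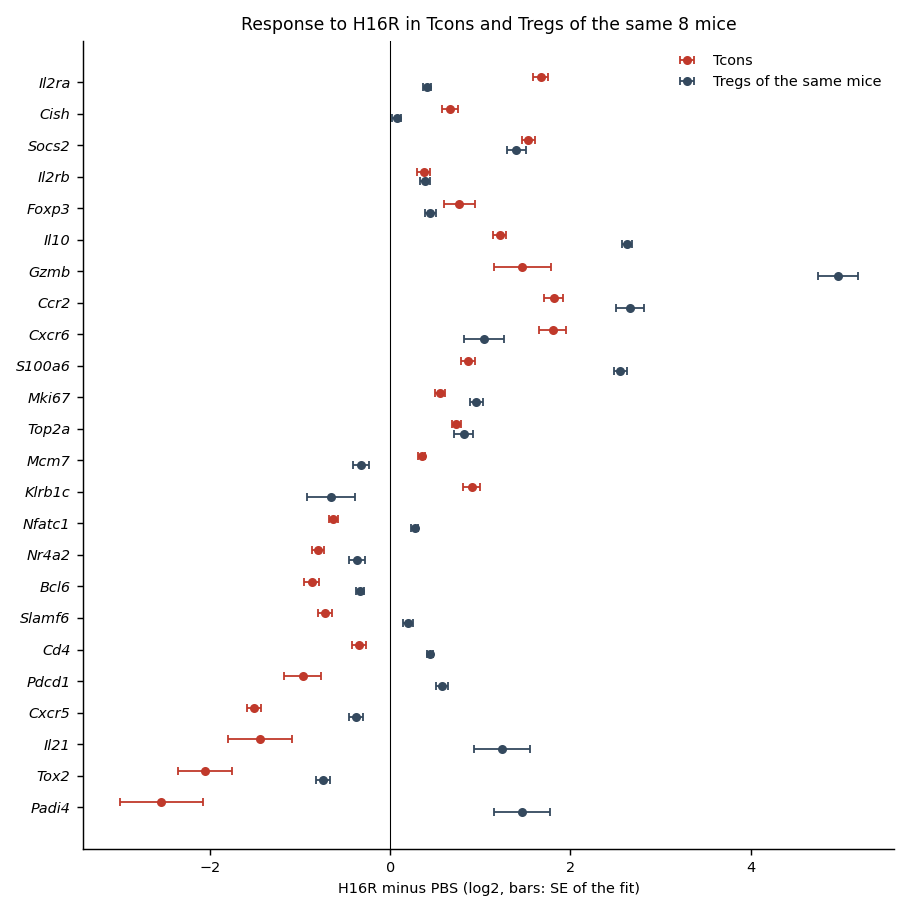
For each named gene on the vertical axis, points give the log2 difference of H16R minus PBS in Tcons and in Tregs of the same 8 mice on the horizontal axis, with bars for the SE of the fit. Il2ra lies at 1.67 in Tcons and 0.41 in Tregs, Gzmb at 1.47 and 4.96, and Pdcd1 at -0.97 and 0.57, on opposite sides of 0.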

How the data were processed

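Polyadenylated RNA of sorted spleen CD4 T cell fractions was sequenced with a stranded kit in paired reads. According to the study's methods the authors aligned reads to the mouse genome build B38 (GRCm38) in Omicsoft Array Suite and estimated expected counts per gene with its RSEM, and deposited these expected counts for all 48 libraries. The authors also deposited FPKM values, which are the same estimates per length and depth. Of the nonzero expected counts 72.63% were whole numbers, and all were rounded for testing. Deposited tables of fold changes, FDR and Wald statistics for Tregs were not used. DESeq2 1.30.1 is named for them in the submitters' notes.

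Protein-coding genes above 0.5 CPM in at least 4 fitted libraries were tested with edgeR 4.0.16 (TMM scaling, quasi-likelihood test, Benjamini-Hochberg adjusted p under 0.1, the threshold used throughout) in R 4.3.3, with the antibody as covariate. Gene types came from an annotation of GRCm38 that held 96.58% of the 53345 gene names. The SE is the size of the log2 difference divided by the root of the F statistic. Differences between arms were tested as an interaction term, and differences between Tregs and Tcons with the mouse as a block, since the labels give both libraries of a mouse the same number. DESeq2 1.42.0, limma 3.58.1 on log2(FPKM + 1), other scalings, other filters, a replicate block and leaving out single libraries were alternatives.

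The gene lists and the comparison itself were chosen with earlier results of these data known. Named genes are the 12 largest rises and falls with a mean above 5 CPM and the same direction in both arms, up to 4 members per list with the smallest p, Foxp3, Il2ra, Il2rb, Il2rg, Cd4, Mki67 and Tnfrsf18, and the 3 largest rises and falls of the other comparisons. Other genes, among them Cish, Il21, Pdcd1, Lrrc32, Il4, P2rx7, Hspa1b, Dusp5, Ier3, Capg, Itgb8, Itga4 and Ahnak and the members listed by name beside a count, were named after their values were seen.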

Additional observations from a re-analysis of the deposited data

Results flagged for a closer look

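The response to H16R in Tcons differed between the antibody arms for the following genes, by the interaction term of edgeR's quasi-likelihood test, with values given as the MHC II block arm minus the isotype arm on the log2 scale. The B cell genes Fcer2a, Cr2, the complement receptor CD21, and Pax5 had differences of 8.17, 6.93 and 3.29 (adjusted p = 2e-04, 0.00011 and 0.0016). Cr2 had 69.2 and 38.6 CPM in isotype PBS and 0.849 to 4.58 CPM in the other 6 libraries. S100a9, a calcium-binding protein of neutrophils, had a difference of 6.27 (adjusted p = 8.8e-05), with 12.7 and 13.4 CPM in isotype PBS, 3.06 and 3.61 in isotype H16R, 1.65 and 0.268 in MHC II block PBS, and 18.6 and 18.2 in MHC II block H16R. Nrn1, Dsp, a desmosome protein, and Synpo, an actin-binding protein, had -1.91, -1.87 and -1.86 (adjusted p = 4.6e-05, 0.0028 and 0.00017). Dsp had 15.4 and 16.1 CPM in MHC II block PBS and 1.18 to 8.93 CPM in the other 6 libraries. The Treg genes Foxp3 and Lrrc32 had -0.901 and -1.17 (adjusted p = 0.0011 and 0.0013), and Il2ra had -0.345 (adjusted p = 0.093). The cytotoxic genes Gzma, Gzmb and Ccl5 had 6.07, 1.58 and 0.829 (adjusted p = 0.00014, 0.0010 and 0.00051), and the heat shock gene Hspa1a had -1.49 (adjusted p = 0.0088).

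The response also differed between the Tregs and the Tcons of the same mice, in edgeR's quasi-likelihood test with the mouse as a block, with values given as Tregs minus Tcons on the log2 scale. Padi4 had a difference of 4.11 (adjusted p = 1e-05), from a response of 1.46 in Tregs, and Vdr, the vitamin D receptor, one of 3.07 (adjusted p = 0.00034), from 2.13 in Tregs and -0.84 in Tcons. Gzmb, Il21, S100a6, Pdcd1 and Il10 had 3.45, 2.91, 1.7, 1.57 and 1.43, all with a higher response in Tregs. Smaller differences of that direction were 1.33 for Tox2, 1.15 for Cxcr5, 0.938 for Slamf6, 0.915 for Nfatc1, 0.805 for Cd4, 0.554 for Bcl6 and 0.419 for Mki67. The neutrophil gene S100a8, Prg2, the eosinophil major basic protein, and the globin Hbb-bt had -3.54, -3.33 and -3.23 (adjusted p = 0.017, 5.7e-06 and 4e-04). Prg2 had a response of 1.10 in Tcons and -2.25 in Tregs. Klrb1c had -1.51, Il2ra -1.24, Mcm7 -0.654, Cish -0.565 and Foxp3 -0.305. The difference for Foxp3 did not pass without the mouse block (adjusted p = 0.26) or in DESeq2 (0.11), and that for S100a8 did not pass without the mouse block (0.20).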

How the results depend on the processing

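Cd8a and Cd8b1, which did not pass over both arms (1.04 and 0.42 on the log2 scale), turned to -1.38 and -0.3751 in the isotype arm alone, and none of the other genes recomputed under each alternative for H16R against PBS changed direction. For H16R against PBS the count of 5090 genes was 378 with an absolute log2 difference of at least 1, 3864 to 5158 when 1 library was left out, and within 1.5 times of 5090 otherwise. Over 155 named genes, 1123 of 1228 calls kept their side of the threshold when a library was left out and 1782 of 2015 under the other settings. The calls of Rrs1, Gpi1, Capg, Gimap3, Ifi44, Ifi47, Sesn1, Socs1, Spred2, Ier2, Pax5, Blk, Il23r, Stat6, Cd37, Gzma, Ccr6, Ldha, Gimap6 and Xcr1 were lost without at least 1 of the libraries, with adjusted p of 0.10 to 0.30. In the fit of all 16 Tcon libraries genes that did not pass included Il21, Pdcd1, Hspa1a, Cd4, Cd28, Uhrf1 and Mcm7 (adjusted p = 0.15, 0.16, 0.10, 0.16, 0.10, 0.17 and 0.17 in edgeR's quasi-likelihood test). The difference between arms, 1597 genes, was 753 with an absolute log2 difference of at least 1 and 1034 to 2137 when 1 library was left out, the lowest without MHC II block PBS replicate 2. The difference between Tregs and Tcons, 6485 genes, was 999 with an absolute log2 difference of at least 1 and 5578 to 6394 when 1 mouse was left out.

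H16R against WT IL-2, 7 genes, gave 4 with total counts alone, 51 with DESeq2, 0 with no filter on low counts, 1 with an absolute log2 difference of at least 1, 139 with only these 2 molecules in the fit, and 0 to 16 when 1 library was left out. Beside the 0 with no filter, 941 genes had an unadjusted p under 0.05 in edgeR, beside the 0 with the replicate block 613, and beside the fits with 0 that left out 1 library 518 to 753. H16R against 3x, 174 genes, gave 745 with DESeq2, 111 with no filter, 32 with an absolute log2 difference of at least 1, 467 with only these 2 molecules in the fit, and 18 to 479 when 1 library was left out, the lowest without isotype H16R replicate 2 or isotype 3x replicate 2 and the highest without isotype WT IL-2 replicate 2. The cause of these changes was not tested.

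Replicate numbers are shared between treatments but do not pair mice, and deviations of libraries with the same number correlated at 0.00337 in the isotype arm and -0.0797 in the MHC II block arm. With the replicate block the counts were 3951 for H16R against PBS (3927 of them among the 5090), 1492 for the difference between arms, 0 for WT IL-2 and 105 for 3x. With 2 mice per group and arm, small differences and genes near the filter are the least certain.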
